A study of Mus musculus with 2 samples.

Results

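The genes examined here are those of sterol and fatty acid synthesis in murine effector CD8+ T cells cultured through 2 rounds of stimulation, set against cells after 1 round. The cells came from the transgenic pmel mouse, in which the CD8+ T cell receptor is fixed to recognise gp100, a protein of pigment cells, and this transgene was shared by both stages. Each 2-colour microarray took total RNA from both stages, with cells after 2 stimulations in channel 2 and cells after 1 stimulation in channel 1, and a repeat array makes 2 arrays in all. The labels do not give the stimulus, the time in culture, the age of the mice or whether animals were pooled, nor whether the repeat came from a separate culture. Errors and p-values therefore reflect array-to-array spread alone, which may be technical. The list held 37 genes of the mevalonate and cholesterol pathway, its control by sterol regulatory element binding proteins (SREBPs), and fatty acid synthesis, elongation and desaturation. Genes were taken by symbol, from probes annotated to exactly 1 gene and with a value on both arrays, with 1 mean per gene. This gave 33 of the 37 genes, on 36 probes, out of 14150 genes measured in all. Acat2, Hmgcs1, Pmvk and Scap had no such probe and were not analysed here.

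Cholesterol is built from acetyl-CoA through mevalonate, isoprenoid diphosphates, squalene and lanosterol, and the isoprenoid intermediates also feed protein prenylation and ubiquinone. SREBP transcription factors are released from the endoplasmic reticulum when its membrane sterol falls, and they switch on both this pathway and fatty acid synthesis. In T cells, these programmes are known to rise with activation, when growing and dividing cells need new membrane.

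Values are log ratios of the channels, taken as log2. The sources used here do not state the log base, and with natural logs every fold would be larger than given. The numerator is not stated either. The titles and the channel numbers both begin with the stage after 1 stimulation, which makes it the likely numerator on the order of naming alone, and a negative value would then be RNA more abundant after 2 stimulations. With the opposite order the sides swap, so results are given as the negative and the positive side of the ratio. In bulk RNA, fewer cells of a type and less RNA per cell cannot be told apart. Over all probes the arrays correlated with Pearson's r = 0.494, and a single probe on a single array varied with an SD of 0.299. Probe medians were 0.01 and 0.02 on the 2 arrays. The stages kept their channels on both arrays, so if the dyes were also kept, a dye bias of a probe and a difference in RNA cannot be told apart. No intensities were used, so the brightness behind a ratio is unknown, and having 2 arrays limits the precision. Ratios carry no level, so the presence of T cell RNA could not be checked. The 8 T cell markers had ratios between -0.15 (Thy1) and 1.16 (Cd5), with Cd2 at 0.57, Cd3d at 0.46, Cd3e at 0.18, Cd3g at 0.28, Cd8a at 0.64 and Cd8b1 at 0.18.

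Sterol synthesis enzymes lay mostly on the negative side, led by the isoprenoid genes Idi1 and Fdps, whereas fatty acid enzymes lay on both sides. Of the 33 genes, both arrays gave a negative value for 21 and a positive value for 6, while over all genes 33.6% were negative on both and 29.6% were positive on both. The median of the 33 gene means was -0.22, with -0.24 on array 1 and -0.16 on array 2, beside a median of -0.02 over all genes. The sterol enzymes, 14 genes measured of 17, held 12 of the 21 negative genes and had a median of -0.38. The fatty acid enzymes, 14 genes measured of 14, had a median of -0.10, with 7 genes negative and 4 positive on both arrays. Of the 6 positive genes of the whole list, 0 were at least 0.2 from 0 on both arrays, and of the 21 negative genes 13 were. Over all genes 10.3% were that far on the positive side and 14.9% on the negative side. A negative lean was not limited to sterol enzymes. The list of other fatty acid genes, described below, had a median of -0.31, with 12 negative and 2 positive of 18. The difference between sterol and fatty acid enzymes was not tested.

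In limma's moderated test over 14150 genes, 0 genes passed an adjusted p of 0.05, which is 0.0% of all genes, and the adjusted p of the 33 genes ranged from 0.146 to 0.988. At an unadjusted limma p under 0.05 there were 11 of the 33 genes on the negative side, where 10.3% of all genes lay, and 0 on the positive side, where 5.86% lay. In the same test after quantile normalization of the gene values, 12 of the 14150 genes passed. None was on this list, which with so few calls says little about the 33 genes. No gene of the list was at least 2-fold from a ratio of 1 on both arrays, a size reached by 0.721% of all genes on the negative side and by 0.233% on the other. At 1.5-fold on both arrays there were 3 genes, all negative (Idi1, Fdps and Cyp51), against 3.0% of all genes on that side and 1.24% on the other. Single genes are therefore described by their size and by whether the arrays gave the same sign.

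**Figure D1:**
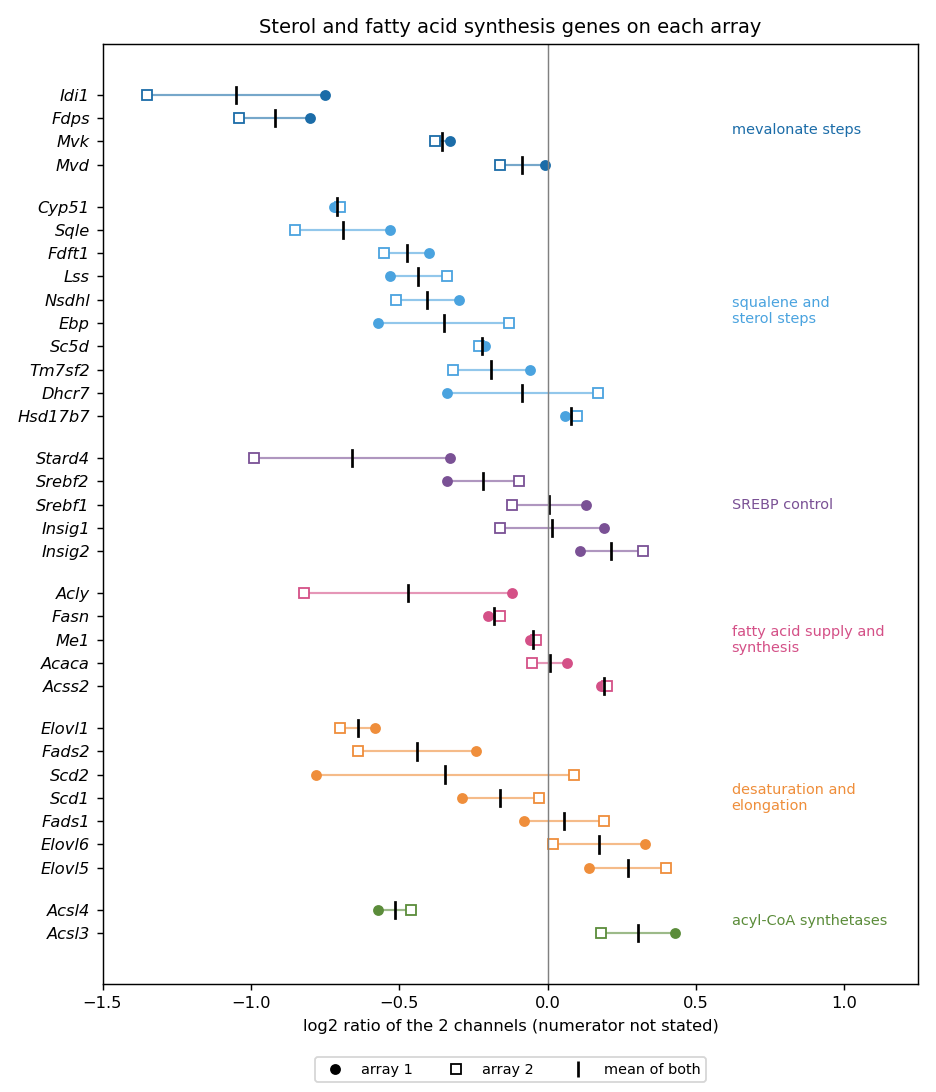
Log2 ratio of each of the 33 genes on array 1 (filled circle) and array 2 (open square), with the mean as a black bar, grouped by role. The mevalonate and sterol genes lie left of 0 apart from Hsd17b7 and the array 2 value of Dhcr7, while the fatty acid genes lie on both sides.

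All 4 measured genes of the mevalonate steps were below 0 on each array, beside 33.6% of all genes. The median of the 4 was -0.64. Idi1, which isomerises isopentenyl diphosphate to the starter unit of isoprenoid chains, read -0.75 on array 1 and -1.35 on array 2. Its mean of -1.05 ± 0.42 (SD, n = 2) is a 2.07-fold difference, with a limma adjusted p of 0.161 and a 95% interval of -1.57 to -0.53, and 1.29% of all genes had a lower mean. Fdps makes farnesyl diphosphate, the branch point to squalene, prenylated proteins and ubiquinone. It read -0.80 and -1.04, a mean of -0.92 ± 0.17 (SD, n = 2), or 1.89-fold, with a limma adjusted p of 0.146. Both genes were therefore far on the same side on each array, and Idi1 varied more between arrays than Fdps. The kinase gene Mvk, which starts the handling of mevalonate, was closer to 0 and even across arrays, at -0.33 and -0.38. Mvd, the decarboxylase that makes isopentenyl diphosphate, read -0.01 and -0.16, within the SD of a single probe given above.

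Downstream, 8 of the 10 genes from squalene to cholesterol were below 0 on each array, beside 33.6% of all genes. The median of the 10 was -0.38. Fdft1, the squalene synthase that commits farnesyl diphosphate to sterols, read -0.40 and -0.55 on the 2 arrays. Sqle, the squalene epoxidase and an oxygen-dependent control point of the pathway, read -0.53 and -0.85, a mean of -0.69 ± 0.23 (SD, n = 2), or 1.61-fold, with a limma adjusted p of 0.19. Lss, which closes the ring system to lanosterol, read -0.53 and -0.34. These 3 consecutive enzymes were all negative on both arrays. Their 95% intervals left out 0, as did those of 10.3% of all genes on the negative side. The limma adjusted p was 0.243 for Fdft1 and 0.27 for Lss.

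Cyp51, the cytochrome P450 that demethylates lanosterol, gave nearly the same reading on both arrays, at -0.72 and -0.70. Its mean of -0.71 ± 0.01 (SD, n = 2) is a 1.64-fold difference with a limma adjusted p of 0.164. Nsdhl and Hsd17b7 act together in removing a further pair of methyl groups, yet lay apart: Nsdhl read -0.30 and -0.51, and Hsd17b7 0.06 and 0.10. Msmo1, the oxidase of the same demethylation and no member of the list, read -0.56 and -2.04, a mean of -1.30 ± 1.05 (SD, n = 2), with a limma adjusted p of 0.233. Its 2 arrays share a sign but not a size.

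The sterol reductase gene Tm7sf2, which acts on the product of Cyp51, read -0.06 and -0.32. In the last steps, the isomerase gene Ebp read -0.57 and -0.13, and the desaturase gene Sc5d -0.21 and -0.23. Dhcr7, which reduces the last intermediate to cholesterol, changed sign between arrays at -0.34 and 0.17. For these 4 genes the 95% interval of the mean included 0.

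**Figure D2:**
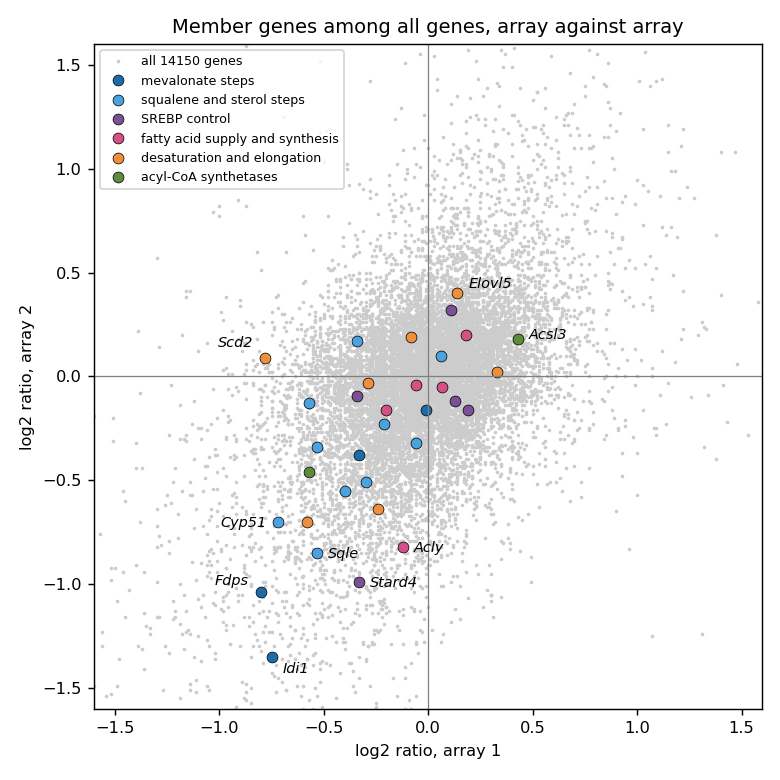
Log2 ratio on array 1 (x axis) against array 2 (y axis) for all genes (grey) and the 33 genes coloured by role; 172 genes lie outside the axes. Idi1 and Fdps are lowest on both arrays together, Cyp51, Sqle and Elovl1 lie next to each other above them, and Scd2 is far from 0 on array 1 alone.

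Of the 5 measured genes of SREBP control, 2 were negative and 1 positive on both arrays, beside 33.6% and 29.6% of all genes. The median of the 5 was 0.005, with 0.11 on array 1 and -0.12 on array 2. The difference from the enzymes was not tested. Srebf2, which encodes the SREBP of sterol genes, was measured by 2 probes, reading -0.41 and -0.30 for the first and -0.27 and 0.11 for the second. Its gene mean was -0.22 ± 0.17 (SD, n = 2), so the probes had negative means but only the first was negative on both arrays. Srebf1, the SREBP gene more tied to fatty acid synthesis, read 0.13 and -0.12. Insig1, itself a known SREBP target that holds the SREBP escort in the endoplasmic reticulum, read 0.19 and -0.16. Its relative Insig2 was positive on both arrays, at 0.11 and 0.32. Stard4, a carrier that moves cholesterol between membranes and a known SREBP target, was the lowest of these 5 genes, at -0.33 and -0.99, a mean of -0.66 ± 0.47 (SD, n = 2), with a limma adjusted p of 0.258.

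Fatty acid supply and synthesis genes lay close to a ratio of 1, apart from the array 2 value of Acly. Acly, which cuts exported citrate into acetyl-CoA for both pathways, read -0.12 and -0.82, so its mean of -0.47 ± 0.50 (SD, n = 2) rests mostly on array 2. Fasn, the fatty acid synthase, read -0.20 and -0.16, and the malic enzyme gene Me1, which supplies NADPH, -0.06 and -0.04. Acss2, which makes acetyl-CoA from acetate, was positive at 0.18 and 0.20. Both Fasn and Acss2 repeated closely, and both 95% intervals included 0. The 3 probes of Acaca, the acetyl-CoA carboxylase that makes malonyl-CoA, did not agree: their means were -0.23, 0.21 and 0.04, and the gene mean was 0.01.

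Among elongases and desaturases, the genes went to both sides. Elovl1, an elongase of very long saturated chains, read -0.58 and -0.70, a mean of -0.64 ± 0.08 (SD, n = 2), or 1.56-fold, with a limma adjusted p of 0.182. Elovl5, which elongates polyunsaturated chains, read 0.14 and 0.40, and Elovl6, which extends palmitate, 0.33 and 0.02. The elongases were thus split, with Elovl1 negative and the other two positive on both arrays. Of the desaturases of polyunsaturated chains, Fads2 read -0.24 and -0.64 and Fads1 -0.08 and 0.19. The desaturases that make oleate, Scd1 and Scd2, read -0.29 and -0.03 for Scd1 and -0.78 and 0.09 for Scd2. Scd2 had the widest spread of the 33 genes (SD of 0.62), and since Scd1 and Scd2 are close relatives, cross-hybridisation between their probes was not tested.

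The acyl-CoA synthetases activate fatty acids for use. Acsl4, which prefers arachidonic acid, read -0.57 and -0.46, a mean of -0.52 ± 0.08 (SD, n = 2), or 1.43-fold, with a limma adjusted p of 0.218. Acsl3, a synthetase of the endoplasmic reticulum and lipid droplets, read 0.43 and 0.18, the highest mean of the list at 0.30 ± 0.18 (SD, n = 2), with a limma adjusted p of 0.396. These synthetase genes did not overlap, but the difference between them was not tested.

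Genes of adjoining lipid pathways were read in the same way, from lists written by textbook role but with earlier results of these data known. Among 18 measured genes of other fatty acid synthesis and handling, 12 were negative and 2 positive on both arrays, beside 33.6% and 29.6% of all genes. The median of the 18 was -0.31. Hsd17b12, the ketoacyl-CoA reductase shared by all elongases, read -1.01 and -1.86, a mean of -1.43 ± 0.60 (SD, n = 2), or 2.70-fold, with a limma adjusted p of 0.148. Dbi, the acyl-CoA binding protein that carries activated fatty acids, read -1.18 and -1.24, a mean of -1.21 ± 0.04 (SD, n = 2), or 2.31-fold, with a limma adjusted p of 0.122. They were the 2 genes of all the lipid lists at least 2-fold on both arrays, both from this list of 18. Over all genes 0.721% reached that size on the negative side and 0.233% on the other. The acyl-CoA thioesterase gene Acot7, at -1.20 and -0.78, and the synthetase gene Acsl5, at -0.73 and -0.83, were also far on this side, and both were picked out after their values were seen. Fabp5 lay between them by mean, at -0.875, but its arrays shared a sign and not a size, at -0.37 and -1.38. Elovl7 was the highest of that list, at 0.52 and 0.21.

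The remaining lipid lists had medians from -0.15 to 0.07, and differences between lists were not tested. Their counts stand beside 33.6% negative and 29.6% positive on both arrays over all genes. The 9 measured genes of protein prenylation had a median of -0.015, with 1 negative and 4 positive on both arrays, from Rabggtb at 0.13 and -0.68 to the farnesyltransferase subunit gene Fnta at 0.27 and 0.28. Among 11 genes of sterol export, storage and the sterol-sensing LXR receptors, 4 were negative and 4 positive on both arrays. The median was 0.07, with -0.06 on array 1 and 0.25 on array 2. Its ends were Npc1 and Npc2, partners that pass cholesterol out of lysosomes: Npc1 read -0.61 and -0.65, and Npc2 0.32 and 1.12. For 21 genes of phospholipid and triglyceride synthesis the median was -0.07, with 10 negative and 5 positive on both arrays. There the phosphatidylserine synthase gene Ptdss1 was lowest, at -0.66 and -0.48, and the phosphatidylinositol synthase gene Cdipt highest, at 0.61 and 0.49. For 19 genes of fatty acid oxidation the median was -0.09, with 7 negative and 2 positive, from the electron transfer gene Etfb at -0.55 and -0.83 to the receptor gene Ppara at 0.74 and -0.12. The 5 measured genes of the other sterol and isoprenoid list, Msmo1 among them, had a median of -0.15, with 3 negative and 0 positive on both arrays and Dhdds highest at 0.13 and -0.18.

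**Figure D3:**
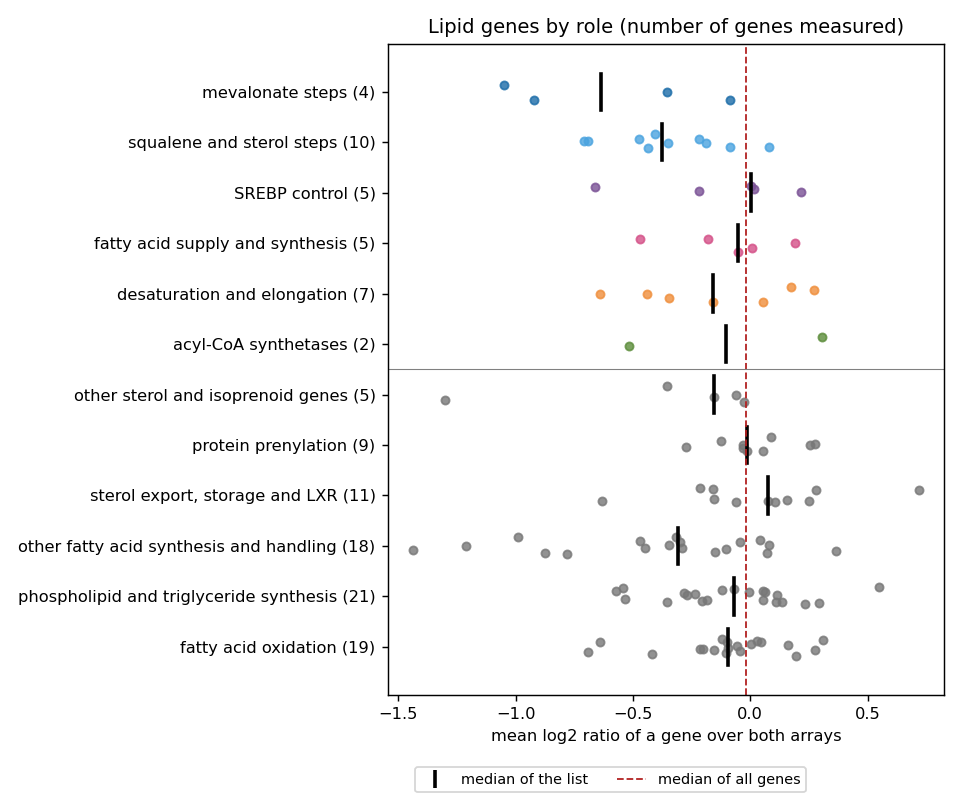
Mean log2 ratio of each gene (dots, spread vertically for view) by role, with the median of each list as a black bar and the median of all genes as a dashed line; numbers in brackets are genes measured. The mevalonate list has a median of -0.64, and the sterol export list one of 0.07 (array 1 alone -0.06, array 2 alone 0.25).

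Markers of dividing cells lay on the same side as the sterol genes. Of 17 measured markers, 15 were negative and 0 positive on both arrays, beside 33.6% and 29.6% of all genes. Their median was -0.86, with array medians of -0.97 and -0.86 and gene means from -1.525 to 0.065. Aurkb (-0.15 and 0.28) and Top2a (-0.64 and 0.06) changed sign between arrays. On both arrays 6 markers were at least 2-fold, a size reached on the negative side by 0.721% of all genes. They were Ccna2 (-1.52 and -1.53), Bub1 (-1.27 and -1.70), Mki67 (-1.62 and -1.24), Ccnb2 (-1.62 and -1.16), Rrm2 (-1.37 and -1.31) and Prim1 (-1.36 and -1.14). Natural killer cell markers also had a negative median, -0.26 over 3 genes, with 2 negative and 1 positive on both arrays and gene means from -1.32 to 0.46. B cell markers had a median of 0.33, with 1 of 7 negative and 5 positive on both arrays and means from -0.04 to 1.38. Of 5 myeloid markers 2 were negative and 1 positive. Their median was 0.03, with means from -0.38 to 0.21. Of 5 fibroblast markers 2 were negative and 3 positive. Their median was 0.12, with means from -0.29 to 0.40. The T cell markers held 0 negative and 6 positive genes of 8, with a median of 0.37. The part of dividing or other cells in the sterol values was not tested.

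Promoter sequences of the listed genes were read as well. The list was drawn around a pathway under SREBP control and the motifs are tied to SREBPs, so the 2 choices are not independent. RefSeq promoters (GRCm38.p6, 250 bases before to 50 after each annotated start) were listed for 30 of the 37 genes, 26 of them measured. Not listed were Fdps, Fdft1, Sqle, Stard4, Scd1, Scd2 and Fads1. SREBPs are known to act beside NF-Y, a factor that binds the letters CCAAT, so both kinds of motif were searched on both strands. Printed here are the 250 bases before the start of the 3 lowest measured genes with a listed promoter, of Mvk, which holds the most CCAAT matches, and of Acsl3, the highest. They lie at chr13:8885356-8885605 (Idi1, plus strand), chr5:4104698-4104947 (Cyp51, minus strand), chr4:118427843-118428092 (Elovl1, plus strand, the first of 2 listed starts), chr5:114444019-114444268 (Mvk, plus strand) and chr1:78657575-78657824 (Acsl3, plus strand). They read 5′ to 3′ on the gene's strand, with CCAAT or its reverse complement ATTGG in capitals.
Idi1: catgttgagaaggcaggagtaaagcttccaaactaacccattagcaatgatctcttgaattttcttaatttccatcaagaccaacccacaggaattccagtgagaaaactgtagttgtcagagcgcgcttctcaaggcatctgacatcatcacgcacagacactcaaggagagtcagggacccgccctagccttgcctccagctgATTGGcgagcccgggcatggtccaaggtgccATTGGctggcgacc
Cyp51: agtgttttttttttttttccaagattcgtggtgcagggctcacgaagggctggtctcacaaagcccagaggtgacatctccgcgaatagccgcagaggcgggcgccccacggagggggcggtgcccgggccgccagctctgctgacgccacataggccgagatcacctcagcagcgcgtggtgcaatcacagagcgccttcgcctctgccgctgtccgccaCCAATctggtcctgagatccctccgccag
Elovl1: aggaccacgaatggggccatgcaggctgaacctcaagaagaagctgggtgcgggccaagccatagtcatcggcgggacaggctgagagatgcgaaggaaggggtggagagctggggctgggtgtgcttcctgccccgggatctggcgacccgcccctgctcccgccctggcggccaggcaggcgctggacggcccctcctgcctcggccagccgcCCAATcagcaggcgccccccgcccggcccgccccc
Mvk: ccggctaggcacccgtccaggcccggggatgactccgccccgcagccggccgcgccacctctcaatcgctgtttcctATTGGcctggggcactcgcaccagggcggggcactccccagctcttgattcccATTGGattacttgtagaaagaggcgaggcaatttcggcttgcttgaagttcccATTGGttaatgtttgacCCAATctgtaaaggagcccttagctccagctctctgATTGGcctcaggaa
Acsl3: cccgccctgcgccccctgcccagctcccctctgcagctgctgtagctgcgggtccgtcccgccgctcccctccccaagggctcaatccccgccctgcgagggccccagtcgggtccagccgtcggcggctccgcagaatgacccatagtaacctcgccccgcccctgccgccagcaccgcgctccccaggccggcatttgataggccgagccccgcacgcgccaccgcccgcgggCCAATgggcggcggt

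In these windows Idi1 holds 2 matches, Cyp51, Elovl1 and Acsl3 1 each, and Mvk 5. Over the 300 bases, and over any listed start, CCAAT was present for 22 of the 26 measured genes (84.6%), compared with 41.1% of 27025 symbols in the table and 42.0% of 11127 measured genes that had a promoter there. With the first listed start alone it was 20 of 26 genes, compared with 37.9% of all symbols. All 11 measured sterol enzymes with a promoter had a match, as did 11 of the 15 other genes. The promoters of the 30 genes were also richer in G and C, with a median of 62.3% against 52.7% for all listed promoters and 58.0% for those of measured genes. Of 46 matches in 40 promoters of these genes, 29 (63.0%) lay in the 100 bases before the start, as did 7755 of 17707 matches (43.8%) over all promoters. The 22 measured genes with the motif had a median log2 ratio of -0.18 and the 4 without it (Acaca, Elovl6, Fads2 and Acsl4) one of -0.22. This leaves out the 7 measured genes with no listed promoter, whose means ran from -0.92 (Fdps) to 0.055 (Fads1). With only 4 genes lacking the motif, a relation between motif and ratio was not tested.

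A form of the sterol element, TCACNCCAC, was found for 1 of the 30 genes, Hmgcs1, which was not measured here, and for 388 of the 27025 symbols (1.44%). The strict element, which holds C at the open letter and has A in front, was found for 0 of the 30 genes and for 27 symbols (0.10%), all of them also matches of the first form. A match or its lack describes these letters in these windows.

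**Figure D4:**
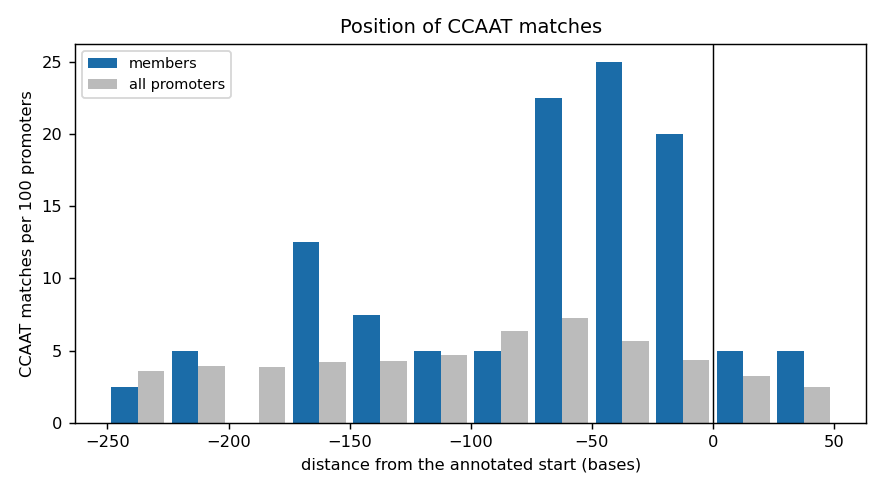
Number of CCAAT matches (either strand) per 100 promoters in bins of 25 bases by distance from the annotated start, for the listed genes (40 promoters, blue) and all promoters (32851, grey). The listed genes are highest between 75 bases before the start and the start itself.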

How the data were processed

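The authors deposited a table with 1 signed value per probe and array, used here as log2 ratios of the 2 channels; how they made it (scanner, background correction, normalization, filters) is not stated in the labels or the table. Of 21919 probes, 21427 had a value on both arrays. Names came from the platform's annotation: 15998 probes had 1 symbol, 288 several and 5633 none. The Entrez ID of 15799 singly named probes was in a RefSeq gene table, where 0 had another symbol. The 2 columns differed and were kept as 2 samples (248 probes were equal). The mean ratio was tested against 0 (two-sided) with limma 3.58.1 in R 4.3.3, over 21427 probes and over 14150 gene means, with Benjamini-Hochberg adjustment at 0.05. Values in the report are those of the gene fit, whose median half-width of the 95% interval was 0.389. Alternatives were centring, quantile normalization, medians per gene, probes with 1 value, other thresholds, other variance models and each array alone. Every measured gene of the list is named. Genes of other lists are named where at least 2-fold on both arrays or highest or lowest of their list. Acot7, Acsl5 and Fabp5 are exceptions, chosen after their values were seen. Markers are named where at least 2-fold on both arrays, and T cell markers all. Aurkb and Top2a are named as well because they changed sign between arrays. The genes, lists and motifs were chosen with earlier results of these data known. Without a genome the probes were not placed.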

Additional observations from a re-analysis of the deposited data

How the results depend on the processing

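The counts of 21 negative and 6 positive genes stayed within 1.5 times under centring, quantile normalization, 1 median per gene and probes with 1 value. On a single array the sign alone decides, and on each array 24 genes were negative and 9 positive, beside 7221 to 7301 negative and 6671 to 6725 positive of the 14150 genes. Asking for at least 0.2 from 0 on both arrays left 13 negative and 0 positive genes, and 14.9% of all genes were that far on the negative side and 10.3% on the positive side. Without replicate 1 or without replicate 2 the median of the list was -0.16 to -0.24, and that of the squalene and sterol steps -0.33 to -0.37. For the smaller lists the single-array medians were -0.053 to -0.06 (fatty acid supply and synthesis), -0.13 to -0.23 (other sterol and isoprenoid genes), 0.03 to 0.07 (protein prenylation, against -0.015 with both arrays), -0.07 to -0.14 (acyl-CoA synthetases), -0.05 to -0.11 (phospholipid and triglyceride synthesis), -0.54 to -0.71 (mevalonate steps), -0.27 to -0.31 (other fatty acid genes) and -0.05 to -0.08 (fatty acid oxidation). The sign turned between arrays 1 and 2 for SREBP control (0.11 and -0.12), desaturation and elongation (-0.24 and 0.02) and sterol export (-0.06 and 0.25). Centring put the fatty acid supply median at -0.065. Under centring, Insig1 reached 0 and Srebf1 and Acaca turned sign. Without replicate 1 these 3 genes turned sign, as did Dhcr7 and Scd2, and without replicate 2 Fads1 did. Their means were small apart from that of Scd2, which was -0.345 from -0.78 and 0.09 on the 2 arrays.

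On 1 array, at least 2-fold, there were 221 to 436 negative and 96 to 245 positive genes over all, and 0 to 2 negative genes of the list (Idi1 and Fdps, without replicate 1). At 1.5-fold on both arrays the counts over all genes were 425 negative and 176 positive, and read as natural logs at 2-fold 288 and 109, with 3 negative genes of the list in each case. limma with centring or a robust spread model called 0 genes and 0 probes. At an unadjusted p under 0.05 it gave 2291 genes and 3186 probes, and after quantile normalization 12 genes at the adjusted threshold and 0 probes. A test on each feature's own spread called 146 genes, 145 with equal values on both arrays, and 241 probes, all 241 equal. Each array held both stages, so the test of the mean ratio against 0 was itself the paired comparison, and the series has no other group. With 1 residual degree of freedom a gene, 0 calls do not show that these genes did not differ.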
